A study of Homo sapiens with 5 samples.

Results

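MIF, its homologue DDT and the 5 receptors through which they are known to act, CD74, CD44, CXCR4, ACKR3 and CXCR2, were followed in human renal cell carcinoma cells. The members were chosen by name around MIF, and MIF was selected on its measured signal in these arrays, where it stood far lower in LM2 than in SN12C. The platform table assigned 25 of 54613 non-control probe sets to the 7 genes, out of 19775 genes with a probe set of their own. CD44 had 13 of them, CD74, CXCR4 and ACKR3 had 3 each, and MIF, DDT and CXCR2 had 1 each. The single DDT probe set is shared with DDTL, the DDT-like gene beside it, so 24 probe sets named a single gene and no value could be given to DDT alone. Total RNA of 3 related lines was hybridised to 5 Affymetrix arrays: SN12C, the parental line that the labels call non-metastatic (2 biological replicates), LM1, of lung-metastatic generation 1 (1 array), and LM2, of lung-metastatic generation 2 (2 biological replicates). The series was designed to relate expression to rising metastatic activity. No treatment is named for any line, and the labels do not state how LM1 and LM2 were derived or whether either is a clone.

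MIF, macrophage migration inhibitory factor, is a small secreted protein that most cells store preformed and that acts as a cytokine. It binds CD74, the class II invariant chain, which signals together with CD44, the hyaluronan receptor, and it also engages the chemokine receptors CXCR2, CXCR4 and ACKR3. DDT, D-dopachrome tautomerase, shares its fold and also binds CD74. In renal carcinoma both MIF and DDT have been studied as tumour-cell products that favour growth.

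The values are log2 signals, so a difference of 1 is a doubling or halving of signal. Signals below 6.03, the 40th percentile of all values, are called dim here. The LM1 array stood apart: its 3' minus 5' difference was 3.43 for beta-actin, against 0.07 to 0.47 on the other 4, and 2.09 for GAPDH, against -0.07 to 0.14. The median gap between replicates over all probe sets was 0.07 for LM2 and 0.20 for SN12C. SN12C replicate 2 lay nearer to the LM2 arrays than to SN12C replicate 1. Its median absolute difference was 0.09 from each LM2 array (Pearson r 0.991 and 0.992) and 0.20 from SN12C replicate 1 (r 0.981). The 2 parental arrays behind each LM2 minus SN12C difference were thus less alike than SN12C replicate 2 and LM2. By their brightest probe sets, the renal and epithelial markers PAX8 (9.19 to 9.82), KRT18 (14.04 to 14.72), CDH6 (6.87 to 7.41) and PAX2 (6.34 to 6.46) were above 6.03 on all 5 arrays. Other probe sets were lower, down to 4.41 for PAX8 and 3.69 for CDH6. Of 9 leukocyte and macrophage markers measured, PTPRC (4.99 to 5.36), LYZ, CD163 and TYROBP were dim on every array. CD14 (6.19 to 7.16), CSF1R (7.14 to 7.31), ITGAM (up to 7.18) and CD3E (6.36 to 7.05) were above the threshold on every array, and MS4A1 was above it on SN12C replicate 1. The differences of the 9 between LM2 and SN12C ran from -0.38 to 0.09.

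MIF signal was lower in both lung-metastatic lines than in the parent. Across the generations its probe set, 217871_s_at, read 13.17 and 13.48 in SN12C, 8.87 in LM1 and 6.44 and 7.97 in LM2. No array of LM1 or LM2 came within 4 log2 units of an SN12C array, and the order of the lines was SN12C, then LM1, then LM2. The LM2 mean was 7.20 ± 1.09 and the SN12C mean 13.33 ± 0.22 (SD, n = 2 each), a difference of -6.12 ± 0.64 (SE of the limma fit), or 69.7-fold on the linear scale. LM1 stood -4.46 ± 0.79 from SN12C, which is 22-fold. These differences are given without a test, since MIF was chosen for them. In LM2 minus SN12C no other probe set in the table had a lower difference, and in LM1 minus SN12C 21 of 54613 did. A lower share of cells with MIF RNA and less MIF RNA in each cell cannot be told apart in such bulk samples. The low LM1 value of MIF falls on the 1 array with a 3' excess, and the part of that excess in the value was not tested. On the LM2 arrays the 3' excess was at most 0.19, and MIF read 6.44 and 7.97.

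The LM2 replicates disagreed on MIF more than on nearly any other probe set. They lay 1.54 log2 units apart, against 0.31 for the SN12C replicates, and of 54613 probe sets 2 had a larger gap between the LM2 arrays. LM2 minus LM1 was -1.66 ± 0.79 for MIF, close to the size of that gap, with both LM2 arrays below LM1. The difference was -0.90 with LM2 replicate 2 alone and -2.43 with LM2 replicate 1 alone. Both LM2 values lay above the dim threshold of 6.03. MIF was read by a single probe set, of the _s_at type that can bind several transcripts, so no second probe set stands beside it.

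**Figure D1:**
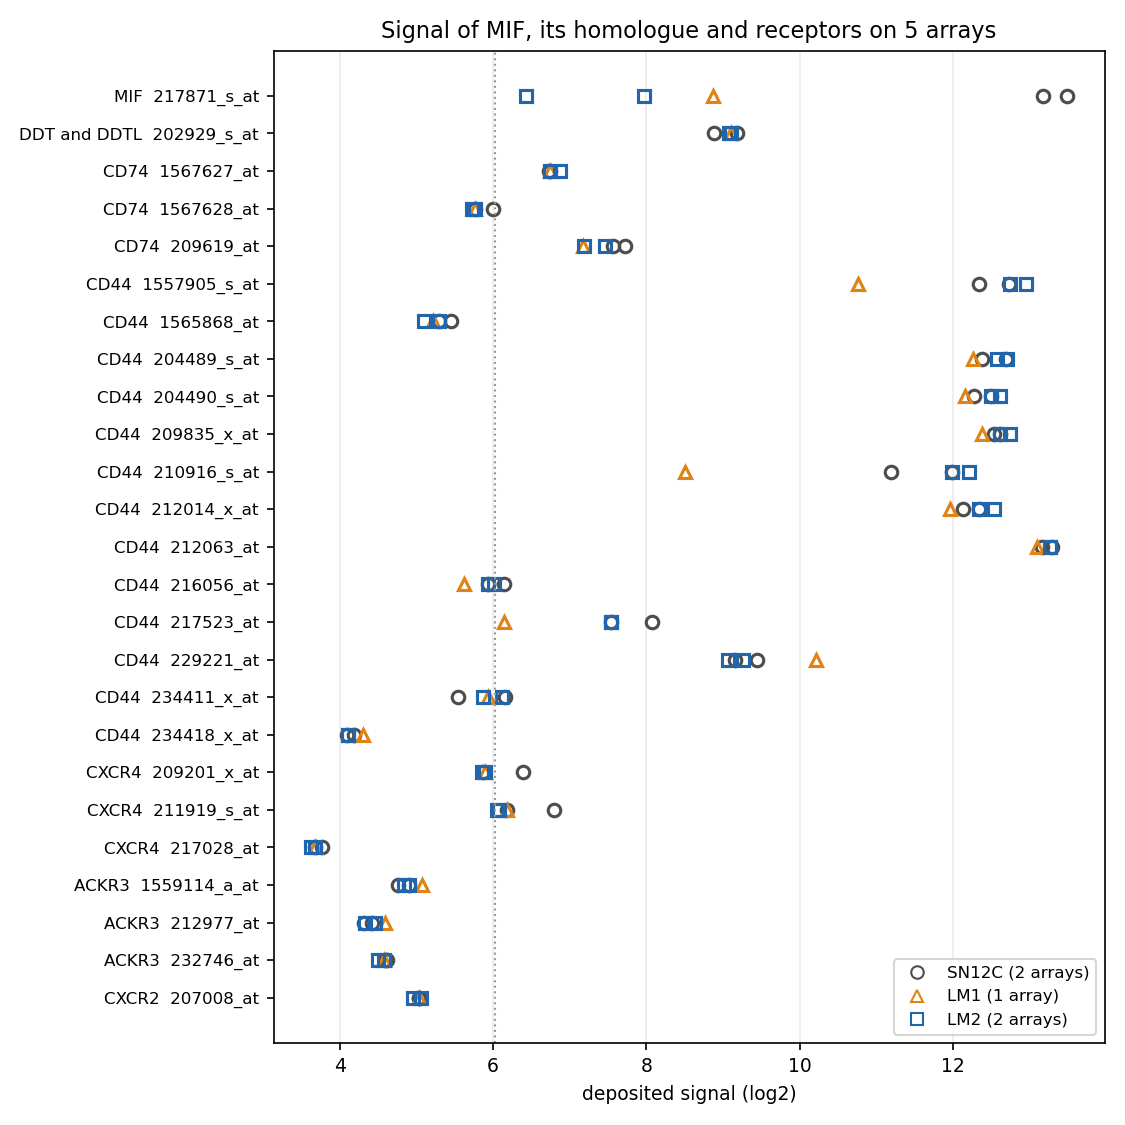
Deposited log2 signal (x axis) of the 25 probe sets of MIF, DDT with DDTL, CD74, CD44, CXCR4, ACKR3 and CXCR2 (rows) on each array, with SN12C as circles, LM1 as triangles and LM2 as squares; the dotted line marks 6.03. MIF spans 6.44 to 13.48, whereas 20 of the 25 probe sets span less than 1 log2 unit.

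The homologue was read only together with DDTL. The probe set shared by DDT and DDTL read 8.88 and 9.18 in SN12C, 9.10 in LM1 and 9.08 and 9.10 in LM2. All 5 values lie within 0.30 log2 units and the lines overlap. Its LM2 minus SN12C difference was 0.06 ± 0.13 (SE), with a limma adjusted p of 0.846, and LM1 minus SN12C was 0.08 ± 0.16 (limma adjusted p = 0.874).

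DDTL and DDT lie within 5 genes of MIF on chromosome 22, and the genes between and around them were examined too. Of the 15 genes on each side of MIF, 17 had a probe set that named them alone. By their brightest probe sets, LM2 minus SN12C differences ran from -0.13 to 0.65, with a median of 0.02. LM1 minus SN12C differences ran from -0.34 to 0.53, with a median of -0.03. Some other probe sets fell outside these ranges. SMARCB1 gave 0.74 (206532_at) and -0.23 (228898_s_at) in LM2 minus SN12C, and C22orf15 gave -0.50 (1558333_at) in LM1 minus SN12C. MIF-AS1, the antisense transcript next to MIF, read 6.67 on both SN12C arrays, 6.55 in LM1 and 6.64 and 6.67 in LM2. The largest LM2 minus SN12C differences among the neighbours were 0.65 for CHCHD10, a mitochondrial protein, 0.35 for SMARCB1, a chromatin remodelling subunit, 0.33 for CABIN1, a calcineurin inhibitor, and -0.13 for C22orf15. None of the 17 was at least 1 log2 unit apart in either comparison. Of all probe sets, 0.701% were at least that much lower in LM2 than in SN12C with arrays that do not overlap, and 1.2% that much higher. Read by brightest probe set, as the 17 were, 1% of 19775 genes were that much lower in LM2 and 1.33% higher. In LM1 minus SN12C, 295 of the 19775 genes were that much lower without overlap and 961 higher. With shares this low, a count of 0 among 17 genes does not set the neighbours apart from other genes.

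**Figure D2:**
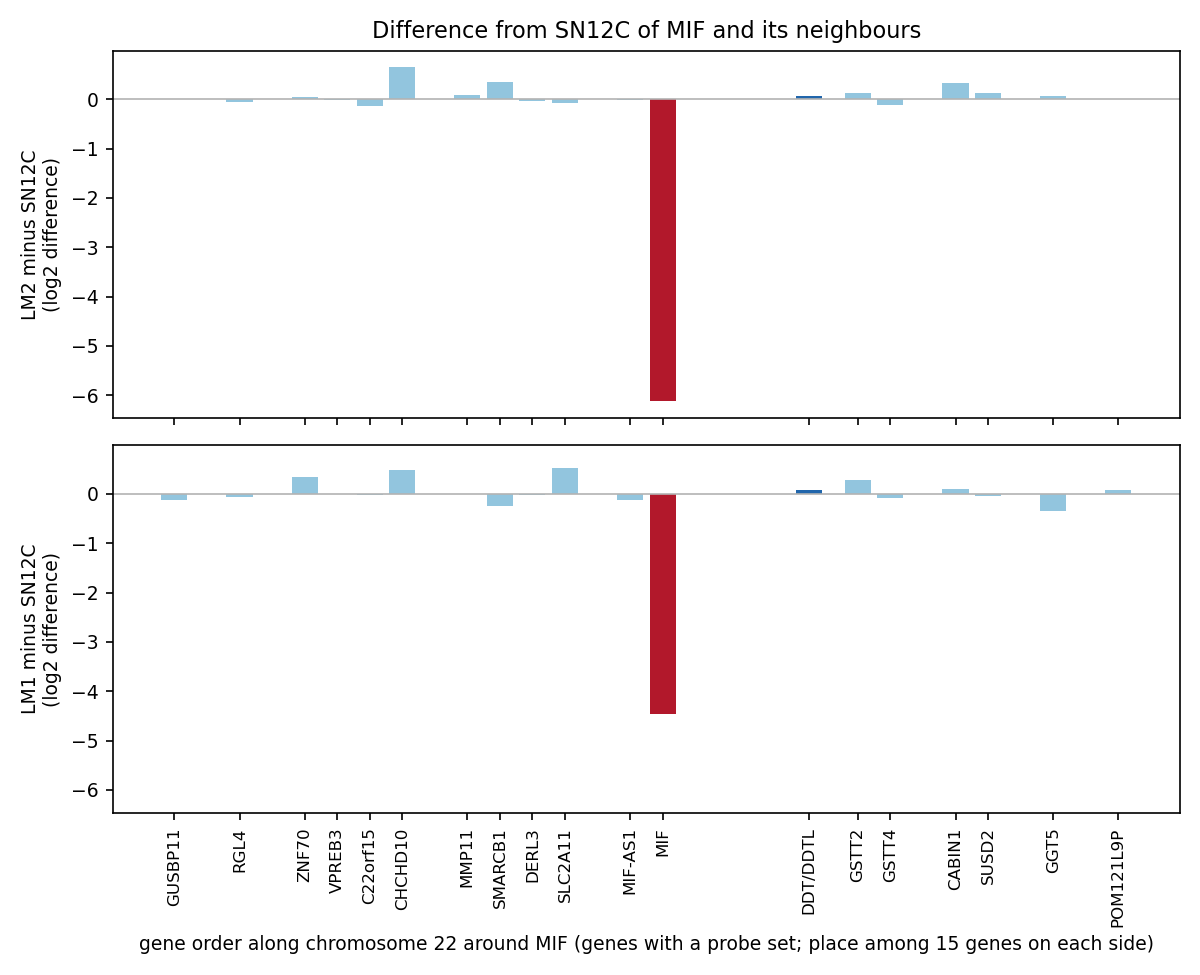
Log2 difference from SN12C (y axis) in LM2 (upper panel) and LM1 (lower panel) for MIF, for the probe set shared by DDT and DDTL and for the 17 measured neighbours, placed in gene order along chromosome 22 (x axis). MIF stands at -6.12 and -4.46, and the neighbours, each read by its brightest probe set, lie between -0.34 and 0.65.

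Over the whole table limma called 0% of probe sets in LM2 minus SN12C, 0% in LM1 minus SN12C and 0% in LM2 minus LM1 at an adjusted p of 0.05, where 3887, 10454 and 9663 had an unadjusted p under 0.05. Accordingly 0 of the 24 tested member probe sets was called in any comparison. Their lowest adjusted p was 0.734 in LM2 minus SN12C, 0.113 in LM1 minus SN12C and 0.127 in LM2 minus LM1. Leaving out MIF, 23 of the 24 differed by under 0.5 log2 units between LM2 and SN12C, and none by 1. An exact permutation test of 2 arrays against 2 cannot go below p = 0.333 (two-sided). The receptors are described by their values.

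CD74, the receptor that MIF and DDT share, was read by 3 probe sets. The brightest, 209619_at, read 7.72 and 7.56 in SN12C, 7.18 in LM1 and 7.46 and 7.19 in LM2. Both LM2 arrays and the LM1 array lay below both SN12C arrays, though the LM2 minus SN12C difference of -0.32 ± 0.14 (SE) was close to the LM2 gap of 0.28 (limma adjusted p = 0.734). The other two CD74 probe sets differed by 0.08 (1567627_at) and -0.14 (1567628_at), with overlapping lines, and the second was dim on all arrays. Across the 3 probe sets no difference between lines reached 0.5 log2 units.

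CD74 works beside the class II molecules it chaperones, and several of these read lower in LM2 than in SN12C. None of 10 genes of the CD74 and class II list was called, 8 of 10 were below 0 in LM2 minus SN12C, against 48.7% of all genes, and the list median was -0.25, against 0.002 over all genes. HLA-DPA1, a class II alpha chain, read 6.34 and 6.15 in LM2, against 7.04 and 7.84 in SN12C, a difference of -1.20 (limma adjusted p = 0.646). Its other two probe sets gave -1.64 and -1.25. HLA-DMA, which loads peptide onto class II molecules, read 5.60 and 6.25 in LM2, against 6.88 and 7.22 in SN12C, a difference of -1.12 (limma adjusted p = 0.629). HLA-DRB1 stood at -0.67 and HLA-DPB1 at -0.41. These 2 genes, HLA-DPA1 and HLA-DMA, were the members of the list at least 1 log2 unit lower without overlap, against 1% of 19775 genes. HLA class II genes are close copies of each other, so a probe set may read more than its named gene.

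CD44 was bright in every line, and its probe sets differed most on the LM1 array. The 5 probe sets 204489_s_at, 204490_s_at, 209835_x_at, 212014_x_at and 212063_at read between 11.96 and 13.30 on all 5 arrays. For 212063_at the values were 13.16 and 13.30 in SN12C, 13.09 in LM1 and 13.26 and 13.26 in LM2. Their LM2 minus SN12C differences ran from 0.04 to 0.20, and LM1 lay 0.07 to 0.17 below the lowest other array.

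On the LM1 array 3 other CD44 probe sets were far lower. Probe set 210916_s_at read 11.19 and 11.99 in SN12C, 8.51 in LM1 and 12.21 and 11.99 in LM2, which puts LM1 at -3.08 ± 0.42 (SE) from SN12C (limma adjusted p = 0.118). Probe set 1557905_s_at read 12.34 and 12.73 in SN12C, 10.76 in LM1 and 12.95 and 12.74 in LM2, a difference of -1.77 ± 0.23 (limma adjusted p = 0.113). Probe set 217523_at read 8.08 and 7.54 in SN12C, 6.14 in LM1 and 7.54 on both LM2 arrays, a difference of -1.67 ± 0.27 (limma adjusted p = 0.136). In each case LM1 was at least 1 log2 unit below every other array. Probe set 229221_at went the other way: it read 9.44 and 9.15 in SN12C, 10.21 in LM1 and 9.07 and 9.26 in LM2, putting LM1 at 0.91 above SN12C (limma adjusted p = 0.159). Of 13 CD44 probe sets, then, 3 were at least 1 log2 unit below each of the other 4 arrays on LM1, against 2.25% of all probe sets.

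The direction in LM1 thus depended on the CD44 probe set, and the 3 low ones fall on the array with the 3' excess of 3.43 for beta-actin and 2.09 for GAPDH; its part in these values was not tested. In LM2, where that excess was 0.07 and 0.19 for beta-actin, the same 3 probe sets stood at 0.51, 0.31 and -0.27 from SN12C. The remaining 4 CD44 probe sets had mean signals below 6.03, with single values between 4.10 and 6.15. Lower signals in LM1 than in SN12C by 1 log2 unit without overlap were found for 4% of all probe sets and higher ones for 3.51%; among the 23 receptor probe sets the counts were 3 and 0. In LM2 minus LM1 the same 3 CD44 probe sets were higher by at least 1 without overlap, against 4.6% of all, and 229221_at was lower by 1.05, against 1.32% of all.

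**Figure D3:**
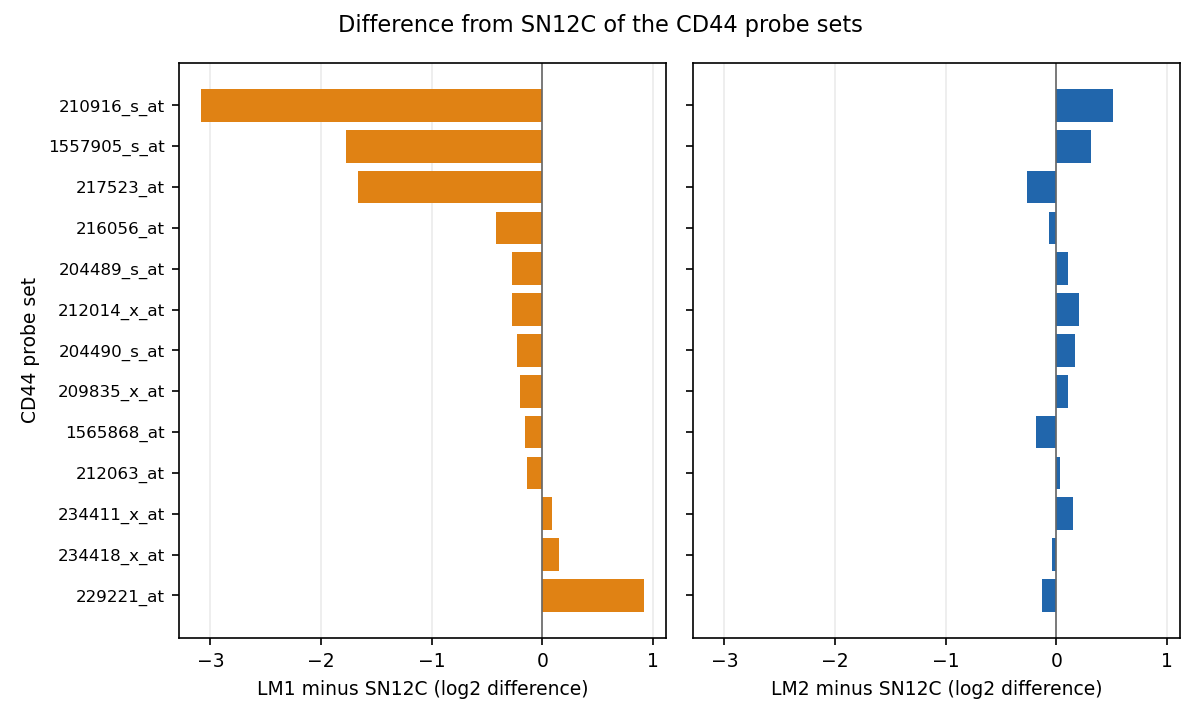
Log2 difference from SN12C (x axes) of the 13 CD44 probe sets (rows) in LM1 (left) and LM2 (right). In LM1 3 probe sets lie between -3.08 and -1.67 and 1 at 0.91, whereas in LM2 all 13 lie between -0.27 and 0.51.

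The partners of CD44 were tested from a list of ligands, membrane linkers, splicing factors and sheddases. None of 14 measured genes was called, and the LM2 minus SN12C median was 0.01, against 0.002 over all genes. SPP1, osteopontin, a secreted CD44 ligand, read 5.77 and 5.95 in LM2, against 8.32 and 7.70 in SN12C, a difference of -2.15 (limma adjusted p = 0.431), and LM1 read 6.21. By brightest probe sets SPP1 was the list member at least 1 log2 unit apart without overlap in LM2. Of all genes 1% were that much lower and 1.33% higher. A second, dimmer SPP1 probe set gave -0.13. ADAM17, a sheddase, stood at -0.85, EZR, the linker ezrin, at 0.61 and HMMR, a hyaluronan-binding protein of the mitotic spindle, at 0.33. Other probe sets passed 1 log2 unit without overlap: ADAM17 205746_s_at gave -1.05, and ADAM10 202604_x_at and 214895_s_at gave 1.01 and 1.09. The brightest ADAM10 probe set gave 0.27, and ADAM17 205745_x_at gave -0.77.

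The 3 chemokine receptors of the group were dim or close to it in all lines. CXCR4, the receptor of CXCL12, was read highest by 211919_s_at at 6.80 and 6.18 in SN12C, 6.18 in LM1 and 6.08 and 6.05 in LM2. Its LM2 minus SN12C difference of -0.42 ± 0.26 (SE) was smaller than the SN12C gap of 0.62 (limma adjusted p = 0.734). SN12C replicate 1 was the high array here, and also for 209201_x_at, which read 6.39 there and 5.86 to 5.90 on the others; 217028_at read 3.63 to 3.76.

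ACKR3, which scavenges CXCL12, was below 6.03 on all 5 arrays for each of its 3 probe sets, with values from 4.32 to 5.08. CXCR2, the receptor of the neutrophil chemokines, read 5.04 on both SN12C arrays and on LM1, and 5.06 and 4.96 in LM2. At signals this low a difference between lines could not have been measured reliably, and these values do not show that the RNAs are absent. The 7 probe sets of CXCR4, ACKR3 and CXCR2 had LM2 minus SN12C differences from -0.42 to 0.04.

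Other ligands of the same receptors held large differences. Of 13 genes in the list of other ligands and related receptors, 5 were at least 1 log2 unit lower in LM2 without overlap, and 0 were higher, against 1% of 19775 genes lower and 1.33% higher by their brightest probe sets. The list median was -0.30, against 0.002 over all genes, and 0 were called. CXCL8, a CXCR2 ligand, read 5.43 and 6.21 in LM2, against 13.30 and 9.25 in SN12C. CXCL2 read 6.44 and 6.86 in LM2, against 12.54 and 10.19 in SN12C. CXCL5 read 7.24 and 7.51 in LM2, against 11.21 and 11.48 in SN12C, and CXCL1 5.56 and 5.62 in LM2, against 10.19 and 7.86 in SN12C. CXCL3 read 5.76 and 5.63 in LM2, against 10.59 and 7.38 in SN12C. Probe sets 1569203_at and 230101_at of CXCL2 gave -0.36 and -0.09, and 207852_at of CXCL5 gave -0.40, each dim on all 5 arrays. CXCL5 probe set 215101_s_at gave -2.80 and CXCL8 probe set 211506_s_at gave -3.385. Unlike MIF, CXCL8, CXCL2, CXCL1 and CXCL3 were over 2 log2 units higher on SN12C replicate 1 than on SN12C replicate 2. CXCL12, the CXCR4 and ACKR3 ligand, read 6.39 and 6.58 in LM2, against 6.86 and 6.32 in SN12C, with overlapping arrays.

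The 5 genes whose centred profile over the 5 arrays lay nearest to that of MIF were CXCL5, CXCL2, COL5A2, TFPI and ZNF542P. Their root mean square distances were 1.04, 1.15, 1.31, 1.37 and 1.40 log2 units. COL5A2, a fibrillar collagen chain, read 9.46 and 10.14 in SN12C, 7.32 in LM1 and 6.17 and 6.77 in LM2. TFPI, the tissue factor pathway inhibitor, read 9.15 and 8.28 in SN12C, 5.30 in LM1 and 5.38 and 5.02 in LM2 by its nearest probe set, 210665_at. TFPI probe sets 213258_at, 210664_s_at and 209676_at had LM2 above LM1, with LM2 minus LM1 at 1.03, 1.57 and 2.69. ZNF542P, a zinc finger pseudogene, read 12.19 and 11.79 in SN12C, 9.98 in LM1 and 8.40 and 9.12 in LM2. In all 5 both LM2 arrays and LM1 lay below both SN12C arrays, which the measure of likeness selects for. On these probe sets, as for MIF, both LM2 arrays lay below LM1 for CXCL5, COL5A2 and ZNF542P. LM2 replicate 1 lay below LM2 replicate 2 for these 3 and for CXCL2. The measure of likeness selects for these orders too, since it used all 5 arrays. CXCL5 probe set 215101_s_at had LM2 above LM1, with LM2 minus LM1 at 1.68. For ZNF542P probe set 235121_at, LM2 replicate 2 (9.22) lay above LM1 (9.11). COL5A2 probe set 221730_at kept the order, with LM2 minus LM1 at -0.09.

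**Figure D4:**
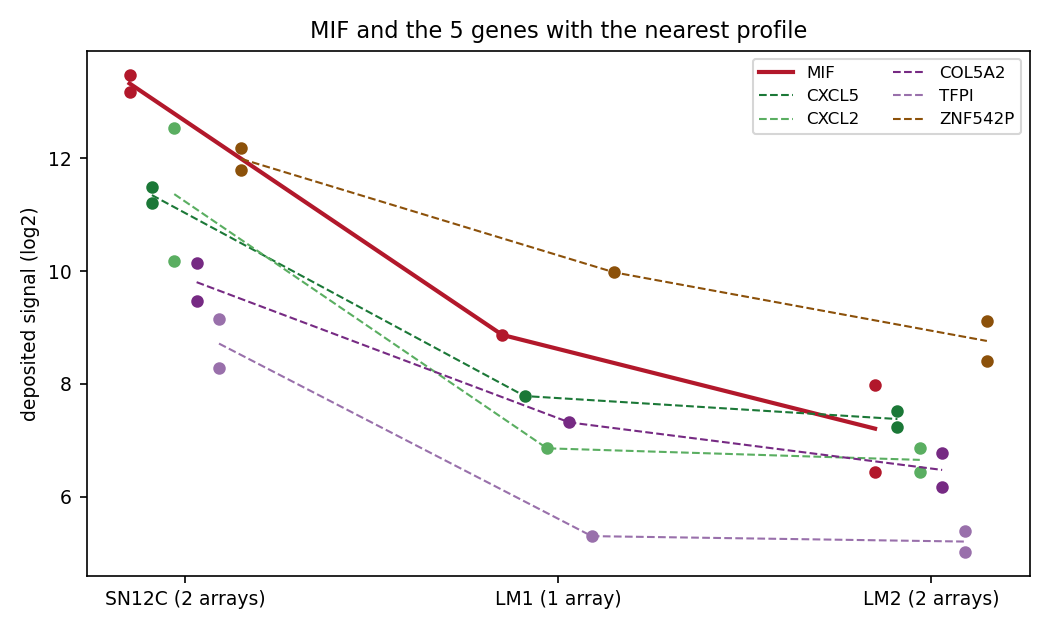
Deposited log2 signal (y axis) of MIF and of the 5 genes with the nearest profile in SN12C, LM1 and LM2 (x axis); points are arrays and lines join the means. MIF has the largest difference, and its LM2 arrays lie farther apart than those of the other genes shown.

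Promoters of MIF and of the nearest genes CXCL5 and CXCL2 are shown because these 3 had the most similar profiles. Each holds 250 bases before and 50 after the annotated start, from RefSeq, build GRCh38.p14. The MIF sequence lies at chr22:23894133-23894432 on the plus strand, that of CXCL5 at chr4:73998628-73998927 and that of CXCL2 at chr4:74099146-74099445, both on the minus strand. Capitals mark matches, on either strand, to the GC box GGGCGG, to ACGTG, the core bound by hypoxia-inducible factors, or to a kappaB core, the kind of site bound by NF-kappaB; no match overlaps another motif.
MIF: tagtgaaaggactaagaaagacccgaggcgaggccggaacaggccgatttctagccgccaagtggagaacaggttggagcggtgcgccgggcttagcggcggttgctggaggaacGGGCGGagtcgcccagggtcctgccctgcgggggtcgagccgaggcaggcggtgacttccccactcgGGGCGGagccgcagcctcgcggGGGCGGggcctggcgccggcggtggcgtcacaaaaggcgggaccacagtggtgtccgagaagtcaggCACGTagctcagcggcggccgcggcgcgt
CXCL5: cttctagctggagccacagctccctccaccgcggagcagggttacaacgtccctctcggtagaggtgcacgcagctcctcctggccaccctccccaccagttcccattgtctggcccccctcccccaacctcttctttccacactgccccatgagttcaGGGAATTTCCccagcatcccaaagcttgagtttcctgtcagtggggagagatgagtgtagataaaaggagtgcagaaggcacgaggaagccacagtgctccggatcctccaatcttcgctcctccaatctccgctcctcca
CXCL2: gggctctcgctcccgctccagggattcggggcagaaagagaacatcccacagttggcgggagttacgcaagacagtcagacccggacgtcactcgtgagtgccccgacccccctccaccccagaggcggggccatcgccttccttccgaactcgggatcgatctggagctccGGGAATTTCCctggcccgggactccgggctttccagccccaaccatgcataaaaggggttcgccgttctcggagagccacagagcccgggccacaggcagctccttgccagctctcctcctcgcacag

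The letters of MIF and of the chemokines had no match in common. MIF held 3 GC boxes, 135, 68 and 46 bases before the start, and 1 ACGTG match after it, and none of the kappaB core or the TATA box. CXCL5 and CXCL2 each held 1 kappaB core, 91 and 78 bases before the start, and none of the other 3. A TATA box, TATAAA, was also searched. Among 35114 promoters of this length 45.0% held a GC box, 21.4% ACGTG, 11.5% the TATA box and 1.91% the kappaB core. The GC content was 70.3% for MIF, 58.7% for CXCL5 and 65.0% for CXCL2, against a median of 58.7%.

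No gene listed as a regulator or partner of MIF differed by 1 log2 unit between LM2 and SN12C. Of 6 regulators of MIF expression none was called in LM2 minus SN12C, with a median of 0.21 (0.002 over all genes). EPAS1, the hypoxia-inducible factor HIF-2 alpha, had the largest, -0.82 without overlap, with 10.32 and 10.45 in LM2, against 10.73 and 11.67 in SN12C. That difference was smaller than the SN12C gap of 0.94 (limma adjusted p = 0.734). A second EPAS1 probe set, 200879_s_at, gave -0.16 with overlapping arrays. CREB1 stood at 0.48, UHRF1, reported to bind the MIF promoter repeat, at 0.43 and NR3C1, the glucocorticoid receptor, at 0.28. For CREB1 and UHRF1 the difference was smaller than the SN12C gap, 0.87 and 1.01. UHRF1 read 12.23 on both LM2 arrays, against 11.30 and 12.31 in SN12C. Other CREB1 probe sets ranged from -0.32 to 0.81. Of 6 measured MIF partners and export genes ABCA1, a lipid transporter linked to MIF release, read 7.23 and 7.25 in LM2, against 8.60 and 7.84 in SN12C, a difference of -0.98 without overlap. AIFM1, which can recruit MIF as a nuclease, stood at 0.52, COPS5, the signalosome subunit JAB1, at 0.37 and HTRA1 at -0.16. The AIFM1 and COPS5 differences were smaller than their SN12C gaps of 0.88 and 0.815, with overlapping arrays. The list median was -0.04, and 0 were called.

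Downstream of the receptors 13 genes were measured, and 0 were called. The LM2 minus SN12C median was 0.13, against 0.002 over all genes, and none was 1 log2 unit apart. DUSP1, the phosphatase that MIF is known to counteract under glucocorticoids, read 10.94 and 10.99 in LM2, against 11.74 and 11.76 in SN12C, a difference of -0.79 (limma adjusted p = 0.407). Dimmer DUSP1 probe sets did not share it: 201044_x_at gave -0.27 with overlapping arrays, and 226578_s_at gave 0. AKT1 stood at 0.72, MAPK3, the kinase ERK1, at 0.39 and ARRB1, beta-arrestin 1, at -0.35.

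**Figure D5:**
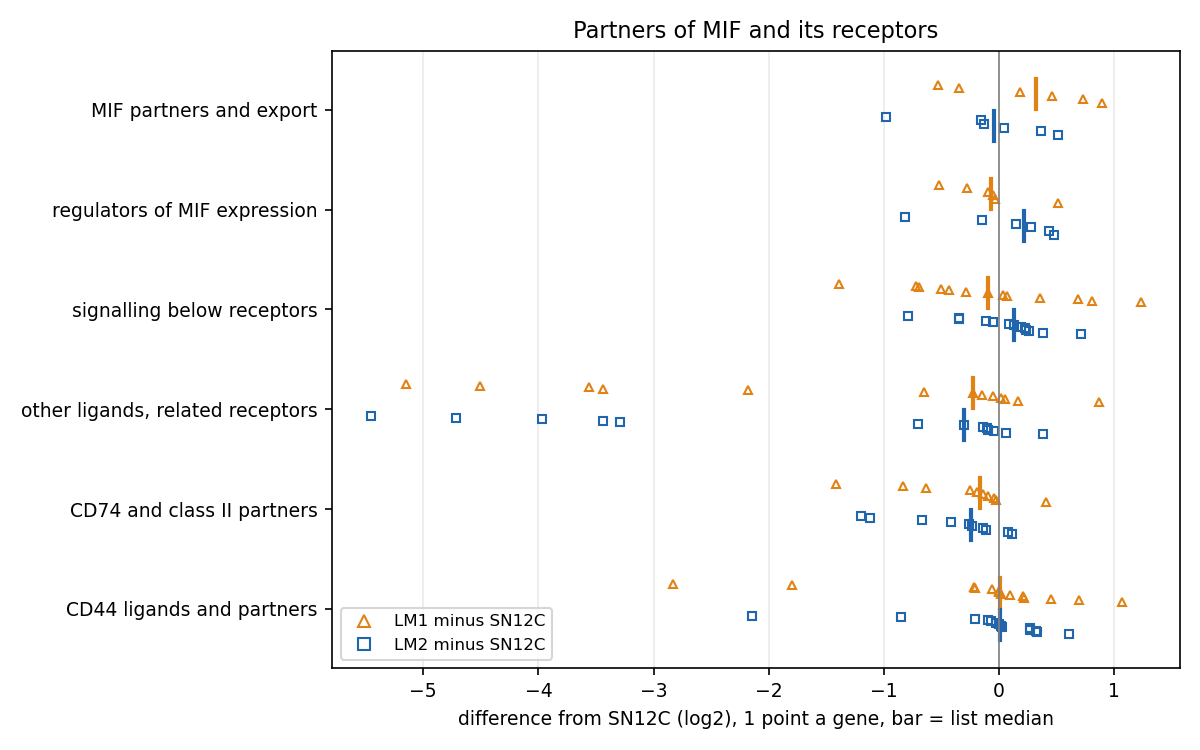
Log2 difference from SN12C (x axis) of each measured gene in the 6 lists of MIF and receptor partners (rows), with LM1 as triangles, LM2 as squares and the list median as a bar. The 5 chemokines in the row of other ligands lie beyond -2 in both lines, and no list median is farther from 0 than 0.32.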

How the data were processed

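The deposited values are log2 signals per probe set and array that the authors made with RMA and Partek, per the submitters' processing notes; versions are not given there. RMA as usually run adjusts for background, normalizes between arrays and summarises probes; the deposited distributions are not identical, with an array SD of 2.11 for replicate 1 of SN12C, the others reaching 2.22 to 2.25. Signal values were identical on at least 2 arrays for 53.3% of probe sets and 17 of the 25 member probe sets, which shrinks some spreads. After 62 controls were left out, limma 3.58.1 in R 4.3.3 (lmFit and eBayes, 1 mean per line, 2 residual and 0.98 prior degrees of freedom) was fitted to all 54613 probe sets without a filter, with Benjamini-Hochberg adjustment; LM1, with 1 array, is assumed to vary like the others. The fit was tested on simulated data. A filter at the 40th percentile on 2 arrays would keep 15 of the 25. The labels do not say that replicates were separate cultures, so p-values measure only the spread between arrays, whose number limits the precision.

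Members and lists were chosen with earlier results of these data known. List genes were read by their brightest probe set with a single gene; up to 4 per list, those with the largest LM2 minus SN12C difference, and the 5 profiles nearest to MIF were named. CXCL3, CXCL12, MIF-AS1, ADAM10, HLA-DRA, CIITA and the marker genes fall outside that rule and were chosen after their values were seen. Gene order came from RefSeq GRCh38.p14. Leukocyte and macrophage, renal and endothelial marker sets had LM2 minus SN12C medians of 0.00, 0.08 and -0.01. List genes without such a probe set were not used here. Alternatives covered the filter, the probe sets and arrays fitted, normalization, centring, eBayes options, left-out replicates and a replicate block. Figures were drawn with matplotlib 3.10.9.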

Additional observations from a re-analysis of the deposited data

How the results depend on the processing

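MIF stayed lower in every alternative that could read it: LM2 minus SN12C ran from -6.89 to -5.36, LM1 minus SN12C from -4.62 to -4.30 and LM2 minus LM1 from -2.43 to -0.90. These alternatives reuse the same arrays and the same probe set, and MIF was chosen for its difference on them, so they give no separate support. Without _x_at and _s_at probe sets MIF has no value. With the replicate number as a replicate block MIF kept -6.12, and 0 probe sets were called in any comparison, as without it. The deviations of same-numbered SN12C and LM2 arrays correlated at 0.036 across probe sets. That value cannot settle whether same-numbered arrays shared a day or batch, which the labels do not state. Counts of calls did change. After quantile normalization of the deposited values 967 probe sets, 2 of them CD44 probe sets, were called in LM1 minus SN12C and 169 in LM2 minus LM1 (0 members). With only the LM1 and LM2 arrays 6266 were called, 3 of them members. With 1 replicate left out the counts ran from 0 to 9602 in LM2 minus SN12C (members 0 to 2), from 0 to 13274 in LM1 minus SN12C (0 to 3) and from 0 to 6266 in LM2 minus LM1 (0 to 3). The calls came without an SN12C array, when the spread rests on the LM2 pair alone: in LM2 minus SN12C without SN12C replicate 2, in LM1 minus SN12C without replicate 1 (8412) or replicate 2 (13274), and in LM2 minus LM1 without either. For single receptor and DDT probe sets, 716 alternative values moved by no more than the residual spread, 9 moved further and 19 were called. All other alternatives called 0 probe sets.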

Other observations

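Probe sets of some partner genes parted on the LM1 array as those of CD44 did; these genes were picked after their values were seen. The 5 probe sets of EZR ranged from -3.82 to 1.07 in LM1 minus SN12C and from 0.27 to 0.99 in LM2 minus SN12C. SRGN, the proteoglycan serglycin that binds CD44, read 11.22 in LM1 by 201858_s_at and between 13.95 and 14.11 on the other 4 arrays, while its probe set 201859_at stood at -0.17 in LM1 minus SN12C. For CCND1, cyclin D1, probe set 208712_at stood at 1.24 and 208711_s_at at 0.12 in LM1 minus SN12C.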
